A study of Mus musculus with 9 samples.

Results

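The SLAM family receptors were examined as 8 of the 46078 genes in the deposited count table, namely Slamf1, Slamf6, Slamf7, Slamf8, Cd48, Cd84, Cd244 and Ly9. They were picked by gene name, and Slamf1 was already known to be among the largest differences between the groups, so the differences between groups in these 8 genes are given below as a description, with no p-value, and the number that passed edgeR's threshold is given beside that of all genes with nothing read from it. The study compared RNA from 2 fractions of bone marrow (BM) cells of wild-type B6 mice. Each fraction was labelled as endothelial cells (ECs) and sorted as CD45-Ter119-CD31+, which keeps cells with the endothelial surface protein CD31 and removes leukocytes and erythroid cells by their surface markers. The Sca-1+ fraction had 4 libraries, called 7, 13, 15 and 19 after the numbers that end their labels, and the Sca-1- fraction had 5, called 8, 10, 14, 16 and 22. No treatment, age or transgene is given for either fraction, and nothing in the labels says that each library came from a separate mouse, so the p-values below measure the spread between these libraries, which may be technical.

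SLAM receptors are surface proteins of the immunoglobulin superfamily, carried mainly by blood cells. Most of them bind a copy of themselves on a neighbouring cell, whereas CD244 binds CD48, a protein anchored in the membrane by a lipid. Their cytoplasmic tails carry tyrosine motifs that recruit the small adaptor SAP and its relatives, or phosphatases in their place. In BM, CD150 (the product of Slamf1) and CD48 are used to sort hematopoietic stem cells from other progenitors, and CD150 and CD84 are also found on megakaryocytes and platelets.

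Promoter sequences of the pair of members with the highest levels, Slamf1 and Cd84, and of the member that differed in the opposite direction, Slamf8, show the starts of the genes on which the results turn. Each runs 5′ to 3′ on the strand of its gene, from 250 bases before to 50 bases after the RefSeq start in GRCm38.p6. Capitals mark a match to a GATA word. Slamf1 lies at chr1:171766882-171767181 on the plus strand, Cd84 at chr1:171839447-171839746 on the plus strand and Slamf8 at chr1:172590519-172590818 on the minus strand.
Slamf1: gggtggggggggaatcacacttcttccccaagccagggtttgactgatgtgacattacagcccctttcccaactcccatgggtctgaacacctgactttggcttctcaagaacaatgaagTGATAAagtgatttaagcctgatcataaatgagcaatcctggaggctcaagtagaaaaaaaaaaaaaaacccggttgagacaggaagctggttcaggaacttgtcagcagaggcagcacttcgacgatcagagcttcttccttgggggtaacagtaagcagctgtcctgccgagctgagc
Cd84: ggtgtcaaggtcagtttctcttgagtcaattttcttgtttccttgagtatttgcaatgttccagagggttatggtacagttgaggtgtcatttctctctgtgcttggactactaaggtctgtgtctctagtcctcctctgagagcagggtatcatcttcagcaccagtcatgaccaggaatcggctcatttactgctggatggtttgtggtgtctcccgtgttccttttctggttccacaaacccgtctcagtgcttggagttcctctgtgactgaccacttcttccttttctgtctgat
Slamf8: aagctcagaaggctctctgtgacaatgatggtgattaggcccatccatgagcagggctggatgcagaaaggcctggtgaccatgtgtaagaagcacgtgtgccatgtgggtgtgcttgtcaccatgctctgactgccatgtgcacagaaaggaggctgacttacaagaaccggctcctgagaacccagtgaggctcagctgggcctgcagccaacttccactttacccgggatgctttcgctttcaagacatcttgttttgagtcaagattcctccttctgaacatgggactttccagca
The words searched for GATA factors were AGATAA or, with another first base, TGATAA, as well as AGATAG or, with the same change, TGATAG, on both strands. Of the 7 members with a RefSeq promoter, 1 held such a word, the TGATAA of Slamf1, and 29.8% of all 32851 mouse promoters of the same length held one. The ETS words AGGAAG and CGGAAG, also read on both strands, were present in 4 of the 7 (Slamf1, Slamf7, Cd48 and Cd84), against 46.5% of all promoters. The RUNX words TGTGGT and TGCGGT were present in 2 of the 7 (Cd48 and Cd84), against 22.4% of all promoters. These matches describe letters in this window and are not evidence of binding. Ly9 had no promoter entry.

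The libraries held 21581653 to 25959818 counts each, and 3 counts, taken as the floor of a library, corresponded to 0.0996 to 0.209 CPM (counts scaled to library size, with library sizes adjusted by TMM). The libraries carried no molecular identifiers, so floors and intervals cover counting error only. Ly6a, which encodes Sca-1, was at 1133 ± 187 CPM (SD, n = 4) in Sca-1+ and 0.678 ± 0.524 CPM (SD, n = 5) in Sca-1- libraries, in the direction of the labels. Against the endothelial label of the Sca-1- fraction, the 16 megakaryocyte markers summed to 27126 to 117175 CPM there and to 48.6 to 97.0 CPM in Sca-1+ libraries, while the 20 endothelial markers summed to 1166 to 4323 CPM and 10135 to 12032 CPM. Of these lists, 16 of 16 megakaryocyte markers were lower and 18 of 20 endothelial markers higher in Sca-1+ by edgeR's test, beside 21.4% lower and 23.3% higher of all genes tested. The sum of 14 leukocyte markers was 3258 to 6094 CPM in Sca-1- and 372 to 489 CPM in Sca-1+ libraries, and Ptprc, which encodes CD45, was 28.9 ± 14.1 CPM (SD, n = 5) and 0.843 ± 1.20 CPM (SD, n = 4). Library 19 stood apart in Sca-1+ by the sum of 9 neutrophil markers, at 777 CPM against 9.29 to 59.4 CPM. Nearly all of it was S100a8, S100a9, Ngp, Ltf, Camp and Lcn2, while Elane, Mpo and Prtn3 were highest in library 7. Library 16 stood apart in Sca-1- by the sum of 8 mast cell and basophil markers, at 13289 CPM against 526 to 2266 CPM. The megakaryocyte and leukocyte sums were higher in Sca-1-, as were the means of all SLAM genes but Slamf8. The endothelial sum was higher in Sca-1+. Within Sca-1- the neutrophil sum was highest in library 14, at 778 CPM, of which Mpo was 598 and Elane 124 CPM. In that library Ngp was 1.10 CPM and Ltf and Camp were at 0. S100a8, S100a9, Ngp, Ltf, Camp and Lcn2 were highest in library 8 instead. No SLAM gene was highest in either library. The part of these lists in the results was not tested. The running numbers that open the labels come from separate ranges in the 2 fractions, so a batch that follows them and the fraction cannot be told apart. In such bulk samples, fewer cells of a type and less RNA per cell cannot be told apart either.

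SLAM genes were almost silent in Sca-1+ ECs and, as a family, were counted in the Sca-1- fraction mostly as Slamf1 and Cd84. The 8 genes held 0.000187% to 0.00100% of the counts of a Sca-1+ library and 0.0788% to 0.210% of those of a Sca-1- library. In Sca-1- libraries, Slamf1 and Cd84 made up 78.5% to 99.6% of the counts of the family. Every member passed the filter on low counts, but Slamf1, Cd84, Cd48, Cd244 and Slamf6 had enough counts to pass through the Sca-1- libraries by themselves, and Slamf8 passed through the Sca-1+ libraries. Members were called where edgeR's quasi-likelihood test gave an adjusted p below 0.05 over all 15937 genes tested, which held for 44.8% of these in either direction. Under this call rule 5 members (Slamf1, Cd84, Cd48, Cd244 and Slamf6) were lower in Sca-1+, beside 21.4% of all genes tested, and 1 member (Slamf8) was higher, beside 23.3%. In 4 members (Slamf1, Cd84, Cd48 and Cd244) every Sca-1+ library lay under every Sca-1- library, a pattern seen in 18.8% of all genes tested, and in Slamf8 every Sca-1+ library lay over every Sca-1- library, seen in 24.8%. Nothing is read from these counts, since the set was chosen from this comparison. The median log2 fold change (Sca-1+ over Sca-1-) was -4.62 over the members and 0.07 over all genes tested. The median of the members was also -4.62 when genes with at most 3 counts in a fraction were set at the lower interval ends or bounds given below. The middle of the order lay between Cd244 and Cd48, which were not reset, so resetting genes at its ends left the median as it was.

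**Figure D1:**
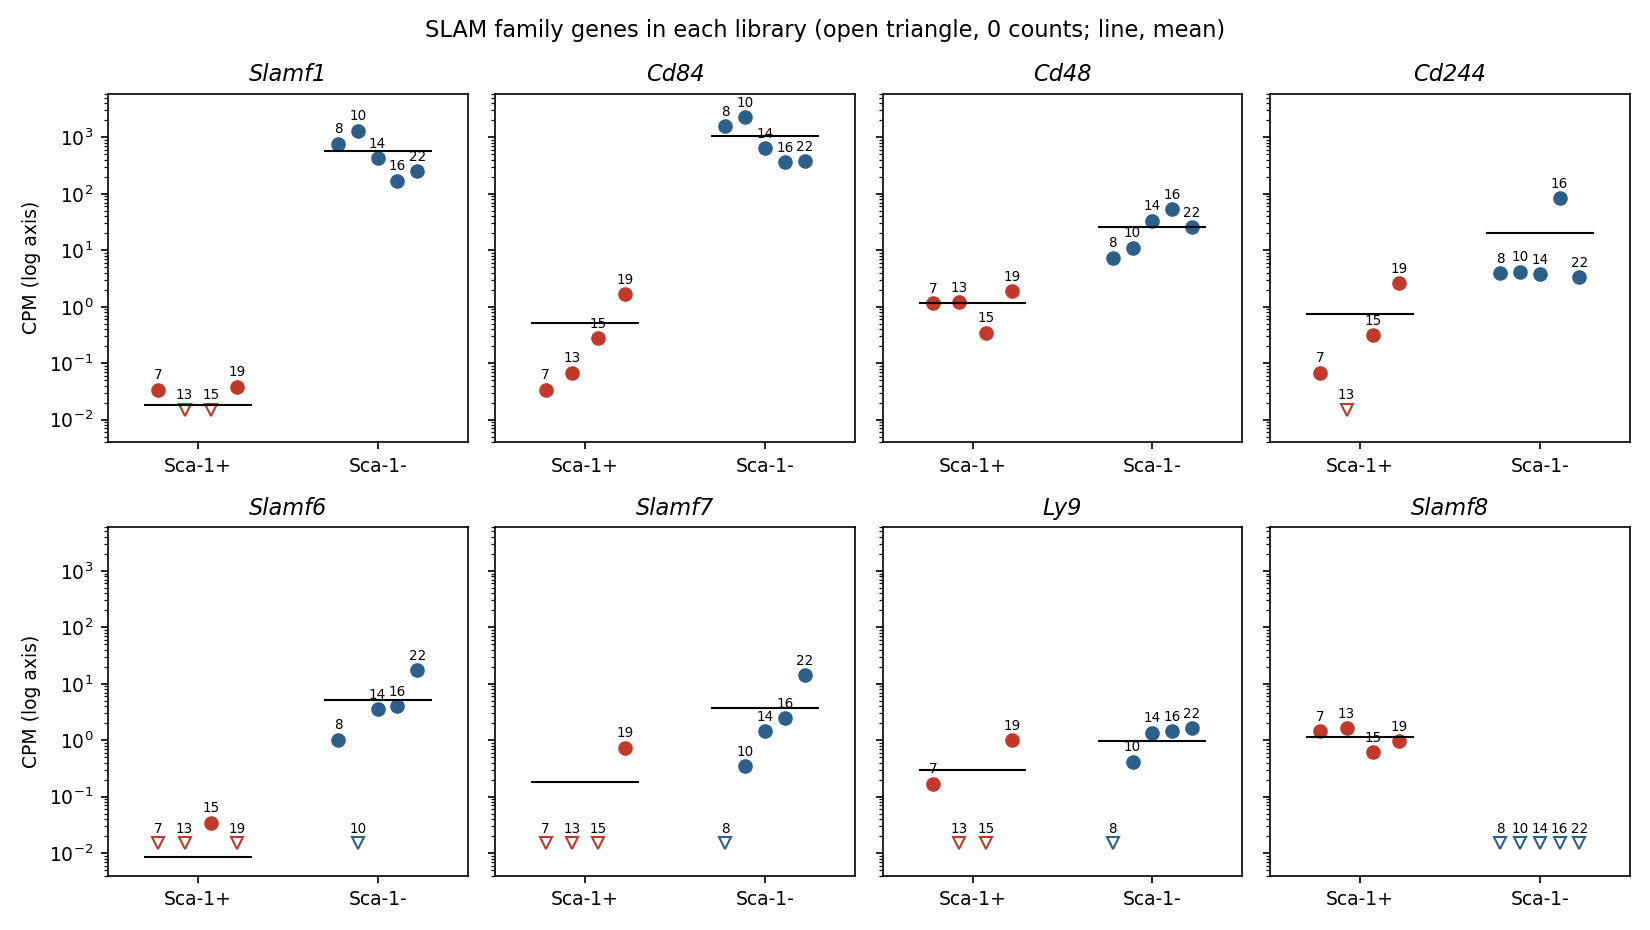
Level of each SLAM family gene in the 4 Sca-1+ (red) and 5 Sca-1- (blue) libraries, in CPM on a log axis, with library numbers beside the points, black lines for means and open triangles for libraries with 0 counts. Slamf1 and Cd84 lay between 169.8 and 2285 CPM in every Sca-1- library and at or under 1.66 CPM in every Sca-1+ library, while Slamf8 had counts in Sca-1+ libraries alone.

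Slamf1 (ENSMUSG00000015316, GRCm38 chromosome 1 from 171767127 to 171801184, plus strand) encodes CD150, a receptor that binds itself and serves as a marker of stem cells and megakaryocyte progenitors. The Sca-1+ libraries 7, 13, 15 and 19 held 1, 0, 0 and 1 counts of it, or 0.0341, 0, 0 and 0.0387 CPM. The Sca-1- libraries 8, 10, 14, 16 and 22 held 12912, 18763, 10019, 5114 and 6217 counts, or 776, 1310.0, 425, 169.8 and 253 CPM. Every Sca-1+ library was under the floor of 3 counts and every Sca-1- library was far over it, with library 10 the highest and library 16 the lowest. The mean in Sca-1- was 587 ± 466 CPM (SD, n = 5), which was 33294 times the level from the 2 counts in all Sca-1+ libraries, with an exact Poisson 95% interval of 9217 to 274919. Within Sca-1- the level of Slamf1 differed 7.71 times between the highest and the lowest library. Without TMM scaling the order of the libraries was kept, at 520, 760, 420, 197 and 288 CPM on unadjusted library sizes in libraries 8, 10, 14, 16 and 22.

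Cd84 (ENSMUSG00000038147, chromosome 1 from 171839697 to 171890718, plus strand) encodes a receptor that also binds itself and is carried by platelets, B cells and myeloid cells. It stood at 0.0341, 0.0681, 0.276 and 1.66 CPM in Sca-1+ libraries 7, 13, 15 and 19, from 1, 2, 8 and 43 counts. In Sca-1- libraries 8, 10, 14, 16 and 22 it stood at 1594, 2285, 648, 364 and 383 CPM. The fractions did not overlap, and library 19 held most of the few Sca-1+ counts. The means were 0.511 ± 0.777 CPM (SD, n = 4) and 1055 ± 852 CPM (SD, n = 5), which gave a log2 fold change of -11.03 ± 1.39 (SE, standard error), or 2085-fold lower in Sca-1+. Without library 19 the log2 fold change was -12.97.

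Slamf1 and Cd84 were highest in the same Sca-1- libraries, 10 and then 8, and the ratio of their levels per kb of exon ranged from 0.476 to 0.674. The sum of the 16 megakaryocyte markers had the same order as Slamf1 over the 5 libraries and took 3.15% to 6.80% of their counts. This order was not particular to that list. The sum of the 20 endothelial markers had it too, from 4323 CPM in library 10 to 1166 CPM in library 16. The TMM factors ran in the reverse order, from 0.581 in library 10 to 1.16 in library 16. As a percentage of the counts of the megakaryocyte list, Slamf1 ranged from 0.626% to 1.12%, a ratio of 1.79 between highest and lowest. That ratio was 3.86 as a share of all counts and 7.71 in CPM after TMM. Cd84 ranged from 1.01% to 1.95% of the list, a ratio of 1.94, beside 3.14 as a share of all counts and 6.28 in CPM after TMM. These are descriptions over 5 libraries that share their depth and scaling.

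Cd48 (ENSMUSG00000015355, chromosome 1 from 171682009 to 171705258, plus strand), the ligand of CD244 and CD2 and a protein of most leukocytes, was present in both fractions. It stood at 1.16, 1.19, 0.345 and 1.90 CPM in Sca-1+ libraries 7, 13, 15 and 19. It stood at 7.39, 11.1, 33.2, 53.2 and 26.0 CPM in Sca-1- libraries 8, 10, 14, 16 and 22. The fractions did not overlap, and the Sca-1- libraries that were high for Slamf1 (8 and 10) were the lowest for Cd48. The means were 1.15 ± 0.634 CPM (SD, n = 4) and 26.2 ± 18.4 CPM (SD, n = 5), which gave a log2 fold change of -4.51 ± 0.72 (SE), or 22.8-fold lower in Sca-1+.

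Cd244 (ENSMUSG00000004709, chromosome 1 from 171559193 to 171609746, plus strand) encodes the receptor of CD48, also called 2B4, known from natural killer (NK) cells, some T cells and myeloid cells including basophils. It stood at 0.0682, 0, 0.311 and 2.63 CPM in Sca-1+ libraries 7, 13, 15 and 19. It stood at 3.90, 4.19, 3.73, 84.5 and 3.34 CPM in Sca-1- libraries 8, 10, 14, 16 and 22. The fractions did not overlap, but the gap between library 19 and the lowest Sca-1- library was small, and library 16 was 20.2 times the next highest. The means were 0.753 ± 1.26 CPM (SD, n = 4) and 19.9 ± 36.1 CPM (SD, n = 5), which gave a log2 fold change of -4.74 ± 1.65 (SE). Without library 16 it was -2.34, and Cd244 then no longer passed the call rule. It also missed it without library 7, 13 or 15, at log2 fold changes of -4.35, -4.31 and -4.47.

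Library 16 was also the library with the most Cd48, and in it the mast cell and basophil list was led by Prss34 at 8295 CPM and Mcpt8 at 3194 CPM, both basophil proteases. In the other Sca-1- libraries Prss34 ranged from 43.1 to 1082 CPM. Gata2 of that list was highest in library 10, at 1825 CPM, against 631 CPM in library 16. Of the 14 leukocyte markers, Ptprc, Cd52, Cd53, Tyrobp, Spi1, Cd37, Ptpn6, Lcp1 and Rac2 were also highest in library 16. Tyrobp was at 444 CPM there, against 9.04 to 98.5 CPM. Coro1a, Laptm5, Fcer1g, Itgb2 and Arhgdib were highest in other libraries. The 8 NK cell markers summed to 37.5 CPM in library 16, within the 17.7 to 75.6 CPM of the Sca-1- fraction, with Nkg7 at 35.1 CPM, Gzmb at 1.63 CPM, Klrk1 at 0.697 CPM, Ncr1 at 0.0664 CPM and Gzma at 0. Gzmb and Klrk1 were at their highest there. The 8 T cell markers summed to 352 CPM in library 16, within 331.5 to 695 CPM, of which Lat made up 351 CPM, with Cd3e and Cd3g at 0. The part of RNA from basophils, NK cells, T cells or other leukocytes in the Cd244 level of library 16 was not tested.

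**Figure D2:**
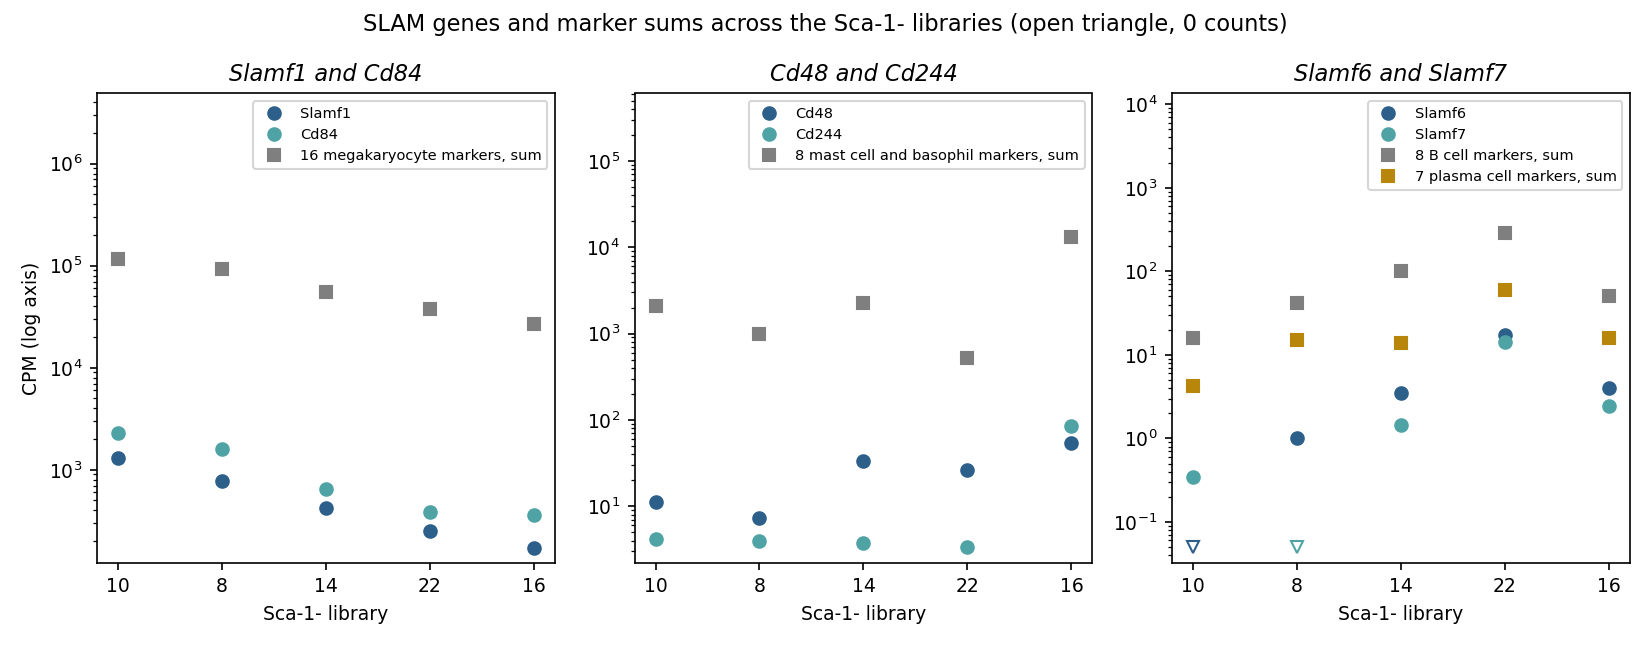
Levels of 6 SLAM genes (circles) and summed cell type markers (squares) in the Sca-1- libraries, in CPM on a log axis, with libraries set in falling order of Slamf1 and open triangles for 0 counts. Slamf1 and Cd84 fell from library 10 to library 16 as the megakaryocyte sum did, and as the endothelial sum, which is not drawn, did too. Cd244 stood out in library 16 at 84.5 CPM where the mast cell and basophil sum was 13289 CPM, and Slamf6 and Slamf7 were highest in library 22.

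The other receptors that bind themselves were low in both fractions and uneven among the Sca-1- libraries. Slamf6 (ENSMUSG00000015314, chromosome 1 from 171917515 to 171953170, plus strand), called Ly108 in the mouse and known from T, B and NK cells, had 0, 0, 1 and 0 counts in Sca-1+ libraries 7, 13, 15 and 19. In Sca-1- libraries 8, 10, 14, 16 and 22 it had 17, 0, 83, 122 and 427 counts, or 1.02, 0, 3.52, 4.05 and 17.4 CPM. Library 10, the highest for Slamf1, held no Slamf6 count at all, so the fractions overlapped at 0. The Sca-1- mean of 5.20 ± 7.02 CPM (SD, n = 5) was 590 times the level from the 1 count in Sca-1+, with an exact Poisson 95% interval of 106 to 23292.

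Slamf7 (ENSMUSG00000038179, chromosome 1 from 171632403 to 171653035, minus strand) encodes CRACC, a receptor known from plasma cells and NK cells. It stood at 0, 0, 0 and 0.736 CPM in Sca-1+ libraries 7, 13, 15 and 19, and at 0, 0.349, 1.44, 2.46 and 14.3 CPM in Sca-1- libraries 8, 10, 14, 16 and 22. The fractions overlapped, and library 19 held every Sca-1+ count. The log2 fold change was -4.33 ± 1.91 (SE) and rests on library 19, since without it no Sca-1+ count was present. Slamf7 shares 423 bases of exon with the antisense gene Gm37787, and the use of strand in counting is not given in the sources used here, so its counts are uncertain.

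Ly9 (ENSMUSG00000004707, chromosome 1 from 171588624 to 171607410, minus strand) encodes CD229, known from T and B lymphocytes. It stood at 0.170, 0, 0 and 1.01 CPM in Sca-1+ libraries 7, 13, 15 and 19, and at 0, 0.419, 1.36, 1.46 and 1.63 CPM in Sca-1- libraries 8, 10, 14, 16 and 22. The fractions overlapped, with a log2 fold change of -1.74 ± 1.40 (SE), which was -3.99 without library 19. Ly9 lies on the opposite strand within the span of Cd244 and shares no exon with it.

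Slamf6, Slamf7 and Ly9 were each highest in library 22 among the Sca-1- libraries. In that library the 8 B cell markers summed to 290.4 CPM against 15.99 to 100.3 CPM in the other Sca-1- libraries, with Cd79a at 56.4 and Cd79b at 90.2 CPM. The 7 plasma cell markers summed to 60.5 CPM there against 4.26 to 15.8 CPM in the others. Of that sum Pou2af1 was 25.9, Sdc1 13.2, Mzb1 12.2 and Irf4 8.35 CPM, while Jchain and Tnfrsf17 were at 0. Sdc1 was no higher there than in library 16, at 13.8 CPM. In Sca-1+, library 19 was the highest for 6 of the 8 members, if only by 1 count against 1 for Slamf1. Among Sca-1+ libraries it also had the highest neutrophil sum, though not the most Elane, Mpo or Prtn3, and the most Ptprc, at 2.56 CPM. It also led the plasma cell sum, at 88.9 CPM against 25.3 to 47.8 CPM, with Jchain at 36.4 CPM against 0.136 to 0.863 CPM, and the B cell sum, at 264.7 CPM against 117 to 135 CPM, of which Ebf1 was 260.7 CPM. The exceptions in library 19 were Slamf6 and Slamf8. The part of these other markers was not tested.

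Slamf8 (ENSMUSG00000053318, chromosome 1 from 172581758 to 172590568, minus strand) encodes a receptor with a short tail that lacks the tyrosine motifs of the family, known from macrophages. It had 42, 48, 18 and 25 counts in Sca-1+ libraries 7, 13, 15 and 19, or 1.43, 1.63, 0.622 and 0.968 CPM, and 0 counts in each of the 5 Sca-1- libraries. The fractions did not overlap, in the direction opposite to the other members. The Sca-1+ mean of 1.16 ± 0.457 CPM (SD, n = 4) was at least 7.88-fold higher than a Sca-1- level of 3 counts per library. Slamf8 was at its lowest over the 4 Sca-1+ libraries in library 15 and at its highest in library 13. The macrophage markers Csf1r (2.66 to 7.32 CPM in Sca-1+ and 2.85 to 6.28 CPM in Sca-1-) and Adgre1 (0.232 to 0.852 CPM and 0.0814 to 4.16 CPM) were low in both fractions. Their part in the Slamf8 level was not tested.

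A pair of relatives outside the set were read beside it. Slamf9, the closest relative of Slamf8, had 8 counts in library 8 and 27 in library 22, 0 counts in the other 7 libraries, and was too low to be tested. Cd2, which encodes another receptor of CD48, stood at 0.205, 0, 0.0345 and 0.232 CPM in Sca-1+ libraries 7, 13, 15 and 19 and at 4.02, 1.61, 3.65, 1.53 and 9.20 CPM in Sca-1- libraries 8, 10, 14, 16 and 22. The fractions did not overlap, and the log2 fold change of Cd2 was -5.04 ± 1.02 (SE). Cd2 had at most 6 counts in a Sca-1+ library and passed the filter on low counts only through the Sca-1- libraries, where it was high, so no p-value is given for it.

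Levels were compared between members per kb of exon. In Sca-1- libraries the mean levels in CPM per kb were 168 ± 136 for Cd84, 95.3 ± 75.8 for Slamf1, 22.02 ± 15.5 for Cd48, 4.09 ± 7.41 for Cd244, 0.810 ± 1.31 for Slamf7, 0.480 ± 0.648 for Slamf6 and 0.294 ± 0.217 for Ly9 (SD, n = 5), with Slamf8 at 0. Cd84 was over Slamf1, and Cd48 over Cd244, in 5 of 5 libraries. Slamf1 was over Cd48 in 4 of 5, with library 16 the exception, and Cd244 was over Slamf7 in 4 of 5, with library 22 the exception. The order among Slamf7, Slamf6 and Ly9 was not clear of the spread, since Slamf7 was over Slamf6 in 3 and Slamf6 over Ly9 in 2 of 5 libraries. In Sca-1+ libraries the leading levels were 0.966 ± 0.534 CPM per kb for Cd48 and 0.378 ± 0.148 CPM per kb for Slamf8 (SD, n = 4), both low.

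Genes with the pattern most like a member over the 9 libraries were ranked among 9867 genes by the root mean square difference of log2 CPM after each gene was centred on its mean. For Slamf1 they were C530050E15Rik (0.66), Pls1 (0.73), Serpinb2 (0.78), Gp5 (0.82) and Tubb1 (0.83), all between 230 and 9284 CPM on average in Sca-1- libraries and at or under 2.74 CPM in Sca-1+ libraries. For Cd84 they were Kcna3 (0.57), Cd226 (0.59) and AI504432 (0.72). For Cd48 they were Plac8 (0.36), Slc38a1 (0.46) and Snx20 (0.52), and for Cd244 they were Igsf6 (0.83), Adam8 (1.02) and Nfam1 (1.04). The genes like Cd48 and Cd244 were not highest in library 10, where those like Slamf1 were. Plac8 was highest in library 16, at 144.8 CPM, and Igsf6 was also highest there, at 74.2 CPM, while Gp5 was highest in library 10, at 9142 CPM, and lowest in library 16, at 1363 CPM.

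The adaptors that give SLAM receptors their best known signals were close to absent in both fractions. Sh2d1a, which encodes SAP, had 1 count in all, in library 15. Sh2d1b1, which encodes EAT-2, had 8 counts in library 15, 28 in library 16 and 1 in library 22, and Sh2d1b2, which encodes ERT, had 0 in every library. At 0 counts a library of this depth still allows a level of up to 0.0996 to 0.209 CPM. These 3 genes and Ticam2 were too low to be tested, which left 19 of the 23 signalling genes listed for the family. Of those 19, 11 were lower and 4 higher in Sca-1+ by edgeR's quasi-likelihood test, and each of these 15 also had fractions that did not overlap. The 11 include Vav1, which passed the filter on low counts only through the Sca-1- libraries, so nothing is read from its call. Of all genes tested, 21.4% were lower and 23.3% higher, and 18.8% and 24.8% did not overlap in these directions. The median log2 fold change of the 19 was -1.70, against 0.07 over all genes tested.

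Among genes downstream of the receptors, Vav1, an exchange factor of Rac in blood cells, stood at 0.102, 0.136, 0.414 and 0.619 CPM in Sca-1+ libraries 7, 13, 15 and 19 and at 317, 429.7, 165, 151 and 174 CPM in Sca-1- libraries 8, 10, 14, 16 and 22. Its log2 fold change was -9.60 ± 0.71 (SE). With 3, 4, 12 and 16 counts in the Sca-1+ libraries it passed the filter only through the Sca-1- libraries, so no p-value is given for it. Prkcq, the kinase that SAP brings to CD150 in T cells, stood at 8.98 to 14.5 CPM in Sca-1+ and at 574, 829, 379, 229 and 324 CPM in Sca-1- libraries 8, 10, 14, 16 and 22 (-5.35 ± 0.45 log2 units, SE, adjusted p = 2.9e-05, edgeR). Both genes were highest in libraries 10 and 8, where Slamf1 and Cd84 were highest. The adaptors Dok2 and Dok1, which restrain signals by way of RasGAP, were lower in Sca-1+ by log2 fold changes of -8.67 and -4.06 (standard errors 0.39 and 0.60, adjusted p = 3.3e-06 and 0.00045, edgeR). Dok2 stood at 0.658 to 1.53 CPM in Sca-1+ and at 285 to 494 CPM in Sca-1-, and Dok1 at 9.80 to 13.7 CPM and 73.1 to 487 CPM.

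Of the phosphatases that compete with SAP for the receptor tails, Ptpn6, which encodes SHP-1 of blood cells, stood at 0.656 to 5.42 CPM in Sca-1+ and at 37.8 to 103 CPM in Sca-1- libraries (-4.95 ± 0.70 log2 units, SE, adjusted p = 0.00035, edgeR). It shares exon with an antisense gene and is also in the leukocyte list. Ptpn11 (SHP-2), Inpp5d (SHIP-1) and Csk, a kinase that restrains Src kinases, were lower in Sca-1+ as well, by log2 fold changes of -3.48, -3.27 and -2.94. Lyn, Plcg2 and Becn1 completed the 11, at -3.16, -1.70 and -1.42, with exon overlaps that leave Lyn and Becn1 uncertain.

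The 4 genes that were higher in Sca-1+ were Lck, Plcg1, Uvrag and Pik3r4. Lck, a Src kinase best known from T cells, stood at 13.97, 15.9, 20.1 and 11.7 CPM in Sca-1+ libraries 7, 13, 15 and 19 and at 0.628 to 1.40 CPM in Sca-1- libraries (3.71 ± 0.35 log2 units, SE, adjusted p = 4.1e-05, edgeR). When libraries were scaled to the endothelial markers, its log2 fold change was 1.03 and it was no longer called (adjusted p = 0.14, edgeR). The 8 T cell markers summed to 27.3 to 38.1 CPM in Sca-1+ and to 331.5 to 695 CPM in Sca-1- libraries. Nearly all of the Sca-1- sum was Lat, at 330.4 to 694.7 CPM against 0.348 to 0.818 CPM in Sca-1+. Cd3d, Cd3e and Cd3g were at 0 to 1.99 CPM in Sca-1- libraries. Cd247 of that list was higher in Sca-1+, as Lck was, at 26.1 to 36.8 CPM against 0.419 to 1.20 CPM, Zap70 was at 0 to 0.813 CPM and 0 to 0.122 CPM, and Cd3d, Cd3e, Cd3g and Cd6 were at 0 in every Sca-1+ library. The part of T cell RNA in the Lck level was not tested. Plcg1, a phospholipase with exon overlaps, had a log2 fold change of 2.10, which was -0.55 under the same scaling. Uvrag and Pik3r4, which belong with Becn1 to a lipid kinase complex that CD150 is known to engage in macrophages, were at 0.995 and 0.936 under TMM and at -1.67 and -1.80 under the endothelial scaling, and Pik3r4 missed the threshold in 13 of 19 alternatives. Uvrag shares exon with an antisense gene and is uncertain. Fyn, the kinase that SAP recruits, stood at 250.3 to 358 CPM in Sca-1+ and at 246 to 698 CPM in Sca-1- libraries and was not called (-0.41 ± 0.34 log2 units, SE, adjusted p = 0.34, edgeR). Rasa1, Shc1 and Pik3c3 were not called either.

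**Figure D3:**
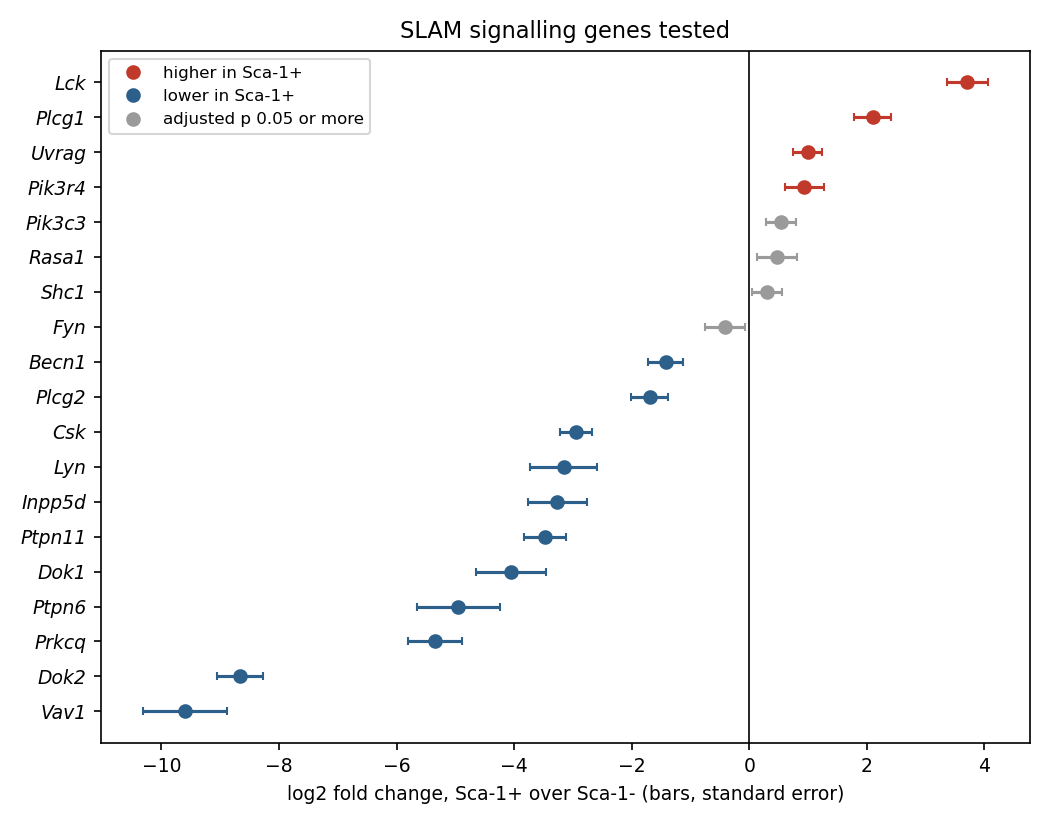
Log2 fold change (Sca-1+ over Sca-1-) of the 19 signalling genes tested, with bars for standard errors and colours for genes lower (blue), higher (red) or not called (grey) at an adjusted p under 0.05 by edgeR. Vav1 lay at -9.60 and Dok2 at -8.67 at one end and Lck at 3.71 at the other, and when libraries were scaled to the endothelial markers the other red genes were under 0 and Lck was not called.

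In the genome, 7 of the 8 members form a cluster on chromosome 1 from 171559193 to 171953170, a span of 394 kb, and Slamf8 lies 629 kb beyond its end. The members on the cluster had negative log2 fold changes throughout, of very different size among neighbours. Within 100 kb of a member lay 31 other genes of the table, of which 10 had no count in any library and 10 were tested. Of the tested neighbours, 3 were lower in Sca-1+, 1 was higher and 6 were not called by edgeR, beside the 21.4% lower and 23.3% higher of all genes tested. The 3 include Gm10521, and nothing is read from its call for the reason given below. Gm10521, 4946 bases beyond the end of Cd84, was at 0 counts in the 4 Sca-1+ libraries and at 2.04, 3.21, 0.721, 0.697 and 0.326 CPM in Sca-1- libraries 8, 10, 14, 16 and 22, at least 13.2-fold lower in Sca-1+ against 3 counts per library. It passed the filter only through the Sca-1- libraries, so no p-value is given for it. Its highest libraries, 10 and then 8, were those of Cd84.

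The other called neighbours lay near Slamf8. Tagln2, an actin binding protein, was at 301 ± 46.9 CPM (SD, n = 4) in Sca-1+ and 1353 ± 619 CPM (SD, n = 5) in Sca-1- libraries (-2.17 ± 0.38 log2 units, SE, adjusted p = 0.0012, edgeR). Dusp23, a phosphatase, had a log2 fold change of -1.73 ± 0.53 with fractions that overlapped (SE, adjusted p = 0.021, edgeR) and was lost from the calls without Sca-1+ library 7, 15 or 19. Cfap45, a protein of cilia, had a log2 fold change of 1.74 ± 0.39 (SE, adjusted p = 0.0046, edgeR), which was -0.76 when libraries were scaled to the endothelial markers. Vangl2, beyond Slamf6, F11r and Alyref2, beyond Cd244, and Tma7-ps, between Cd48 and Slamf1, were tested and not called.

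**Figure D4:**
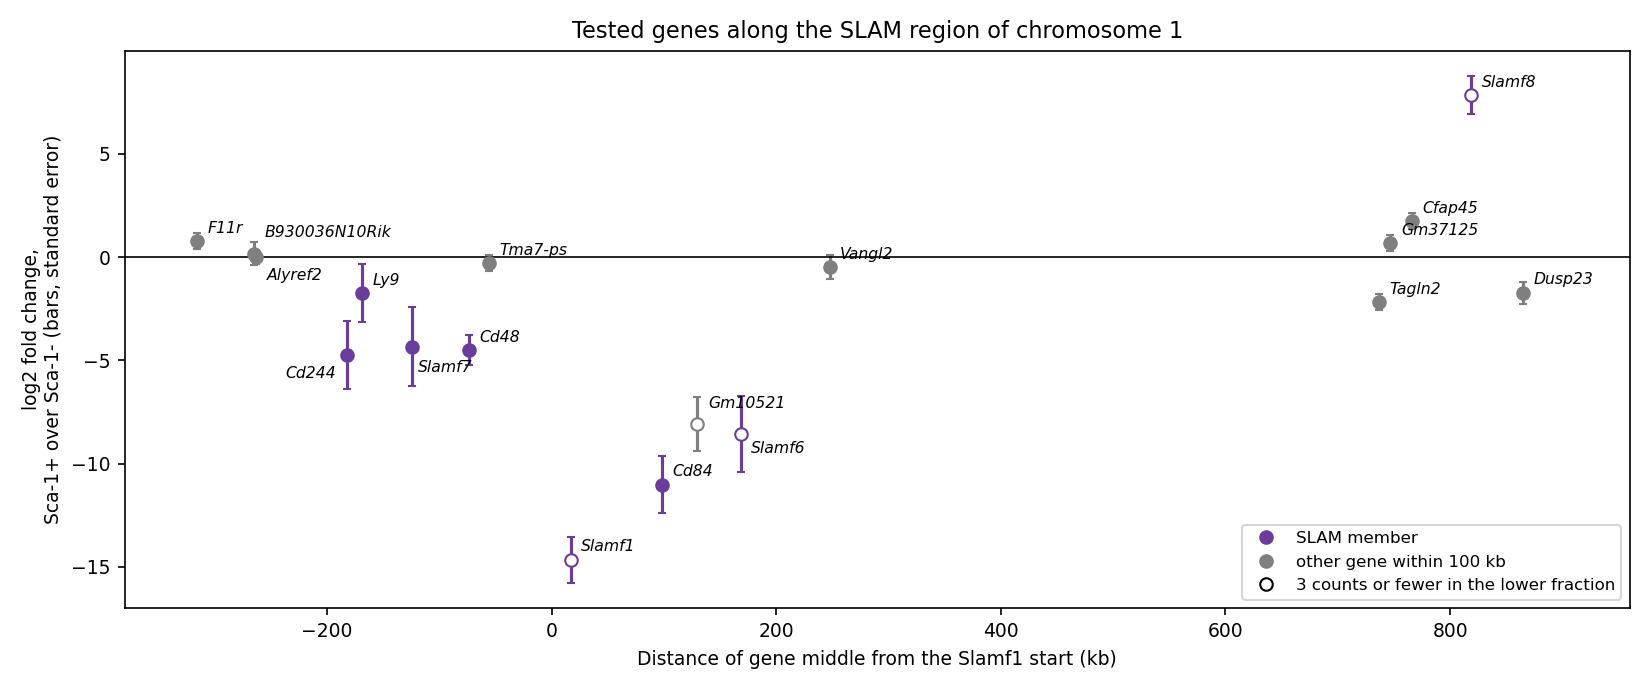
Log2 fold change (Sca-1+ over Sca-1-, bars for standard errors) of each tested gene against the distance of its middle from the start of Slamf1, in kb, with SLAM genes in purple and other genes in grey. Open circles are genes with 3 counts or fewer in their lower fraction, whose fitted values depend on the prior count, and the cluster members lay under 0 while Slamf8, far to the right, lay over it.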

How the data were processed

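RNA-seq was performed on CD45-Ter119-CD31+ cells sorted from BM of wild-type B6 mice, with poly(A)-primed full-length cDNA libraries and no molecular identifiers. The authors deposited whole-number read counts per Ensembl gene for 9 libraries in 1 table, without normalization, and the submitters' processing notes name STAR, featureCounts and mm10. Strand use and versions are not given in the sources used here, so counts of genes that share exon with another gene are uncertain. Multi-mapping reads and PCR copies may also affect counts. Groups came from the labels' sorted cell field, and every sample column was used.

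Counts were fitted in R 4.3.3 with edgeR 4.0.16 on all 9 libraries with no covariate, after filterByExpr (minimum count 10, minimum total 15) and TMM scaling. Of 26424 genes with a count, 15937 passed and entered edgeR's two-sided quasi-likelihood F-test, and p-values were adjusted over all of them by the Benjamini-Hochberg method (threshold 0.05). The common dispersion was 0.301. Standard errors came from the F statistic, and a prior count of 2 was used for log2 CPM. Folds of genes with at most 3 counts in a fraction were computed from counts, as a bound against 3 counts per library where there were 0, and otherwise with an exact Poisson interval from scipy 1.17.1. Alternatives changed the scaling, filter, test (DESeq2 1.42.0, limma 3.58.1 voom), robustness, block or libraries used. The fit was first tested on simulated data with known changes. No 2 libraries of a fraction were copies (chi-square per degree of freedom 36.8 to 538).

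Members, gene lists and tests were chosen with earlier results of these data known. Named genes were the 8 members, Slamf9 and Cd2, the signalling genes and neighbours within 100 kb with an adjusted p under 0.05 (signalling genes also without overlap, with values for the 6 largest changes), the 5 genes most like Slamf1 and the 3 most like each other member with a mean of at least 10 CPM in a fraction, Ly6a, Pecam1 and Ptprc as checks of the sort, and markers beside a member. A marker gene that enters the sum of its list is not reported here. Genes compared for likeness had an average log2 CPM of at least 3. Other neighbours and signalling genes named as not called, or as not tested, were named after their values were seen. Pecam1, which encodes CD31, was at 1399 ± 261 CPM (SD, n = 4) in Sca-1+ and 836 ± 613 CPM (SD, n = 5) in Sca-1- libraries. Coordinates and exon lengths came from GENCODE M21 on GRCm38, the build called mm10, which held 45143 of the 46078 genes. Promoters came from RefSeq, where Cd244 was matched as Cd244a. Consecutive end numbers of the labels (7 and 8, 13 and 14, 15 and 16) were tried as a replicate block, and 15 and 16 also share a tag in their labels, as do 13, 14 and 22. Python 3.11.15 with matplotlib 3.10.9 drew the plots.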

Additional observations from a re-analysis of the deposited data

Results flagged for a closer look

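In 6 of 66 groups of 4 or 5 libraries, 1 library lay far from the rest on the log2 CPM scale by Dixon's test, which chance alone gives in about 1 in 20 groups. Among the SLAM genes, Cd244 in Sca-1- library 16 was at 6.40 against 1.77 to 2.09 in the other Sca-1- libraries. Slamf7 in Sca-1+ library 19 was at -0.29, from 19 counts, against -3.63 at 0 counts in the others. Slamf6 in Sca-1+ library 15 was at -3.12 against -3.63, a gap of 1 count. Among the signalling genes, Lck in Sca-1- library 10 was at -0.50, from 9 counts, against 0.39 to 0.57. Pik3r4 in Sca-1- library 10 was at 2.62 against 4.03 to 4.35, and Pik3c3 in Sca-1+ library 15 was at 5.13 against 5.60 to 5.65.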

How the results depend on the processing

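The 8 SLAM genes had the same direction in every alternative in which they were tested, over 10 alternatives and 9 fits that left out 1 library, with the call unchanged in 129 of their 137 values. DESeq2 gave Cd244 no adjusted p. Scaling to the endothelial markers moved the median log2 fold change of all genes by -2.64 and library size by 0.35, and changes are to be read relative to these shifts. Under the endothelial scaling 458 genes were higher and 11605 lower, signalling genes 0 higher and 17 lower, and neighbours 0 higher and 9 lower. That scaling turned Rasa1 to -1.995, Shc1 to -2.36, Plcg1 to -0.55, Pik3c3 to -2.07, Pik3r4 to -1.80, Uvrag to -1.67 and Cfap45 to -0.76, and library size turned Fyn to 0.14. Slamf7 and Ly9 gained a call under the endothelial scaling, and Slamf7 under DESeq2. Higher neighbours numbered 3 with library size and 2 with no filter on low counts. With 1 library left out, 3 to 6 members were lower and 1 was higher, 11 signalling genes were lower and 3 to 4 higher, 2 to 3 neighbours were lower and 1 to 2 higher, and 2859 to 3577 genes were lower and 3098 to 3708 higher. The log2 fold change of Cd2 was then -5.56 to -4.48. The 3 lower members came without Sca-1- library 16, where 5 members were tested, and the 2 higher neighbours without Sca-1- library 10. Apart from these fits, which test fewer samples or genes, the cause was not tested. The end numbers of the labels gave the replicate block. Deviations from the fraction means correlated at 0.147 for 7 and 8, 0.148 for 13 and 14 and 0.0420 for 15 and 16. Pairs of other numbers ranged from -0.191 (13 and 8) to 0.0650 (19 and 8), under the values of 7 and 8 and of 13 and 14. Libraries 15 and 16 also share a tag in their labels, as do 13, 14 and 22, whose meaning the labels do not give. A pairing of these libraries is therefore possible, and the main fit, which has no block, takes no account of it. With this block in 6 libraries 2265 genes were higher and 2075 lower, and 0 neighbours were higher, against 2768, 2592 and 1 in the same 6 libraries without it. Depth limits the members near the floor, above all Slamf6, Slamf7, Ly9 and Slamf8.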
